A study of Mus musculus with 12 samples.

Results

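The 35 genes described here are the contractile genes of vascular smooth muscle and the markers of its modulated state in the plaque. They were taken by symbol from 25284 genes in a table of raw counts. All 35 have a row in it, 33 under the same symbol and Mrtfa and Mrtfb under the older symbols Mkl1 and Mkl2. All 35 also passed the filter on low counts, which kept 15857 genes. RNA was sequenced from the thoracic aorta of 12 male ApoE-/- mice, 18 weeks old, fed a high fat, cholesterol enriched diet from 10 weeks of age. All 12 lack apolipoprotein E, through which lipoproteins are cleared from blood, and are a model of atherosclerosis. The 6 control mice (C1 to C6 here) received vehicle, cyclodextrin in saline, from subcutaneous osmotic minipumps for 8 weeks. The 6 treated mice (A1 to A6) received AZ6983, an agonist of the nicotinic acetylcholine receptor α7nAChR, at 50 µmol per kg per day in the same way.

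Smooth muscle cells of the artery wall contract when calcium activates myosin light chain kinase, which phosphorylates the light chain of smooth muscle myosin and lets it pull on actin filaments. Most genes of this apparatus share a switch, in which serum response factor (Srf) binds the CArG box of DNA and is driven by myocardin (Myocd) or the related cofactors Mrtfa and Mrtfb. In the atherosclerotic plaque, smooth muscle cells can lose contractile proteins and gain genes of fibroblast-like, macrophage-like or cartilage-like cells, a change called phenotypic modulation.

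Promoters of the group were searched for the CArG box. The table of RefSeq promoters used here (GRCm38.p6, the build mm10 of the submitters' processing notes) holds 28 of the 35 genes, with 250 bases before and 50 after each start. A CArG box was searched as CC, an inner run of only A and T, and GG, a pattern that reads the same on both strands. It was found in 3 of the 28 genes (10.7%), which were Srf, Myl9 and Ldb3, against 1.81% of 27025 genes with a promoter in the table. When 1 inner base could be C or G, it was found in 8 of 28 (28.6%) against 11.3%. The bases before the start that lie in no GENCODE exon of the gene are shown for the 3 genes with an unbroken box, with the matches in capitals. Acta2, whose boxes each hold 1 inner C or G, is shown as 30 bases around each box, since 217 of its 250 bases lie in an exon of another form. The start is that of 1 annotated form of each gene, and the stretches lie within the RefSeq span of their genes over all 250 bases searched in Srf and Ldb3, 212 in Acta2 and 56 in Myl9.
Acta2 first box, chr19:34255438-34255467, minus strand: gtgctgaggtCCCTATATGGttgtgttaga
Acta2 second box, chr19:34255388-34255417, minus strand: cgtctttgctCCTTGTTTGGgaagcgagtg
Srf, chr17:46556176-46556412, minus strand: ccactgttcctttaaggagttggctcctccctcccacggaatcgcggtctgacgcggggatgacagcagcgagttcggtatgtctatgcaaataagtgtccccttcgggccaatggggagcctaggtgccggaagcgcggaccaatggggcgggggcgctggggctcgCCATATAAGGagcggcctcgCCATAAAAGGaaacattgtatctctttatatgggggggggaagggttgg
Myl9, chr2:156775214-156775419, plus strand: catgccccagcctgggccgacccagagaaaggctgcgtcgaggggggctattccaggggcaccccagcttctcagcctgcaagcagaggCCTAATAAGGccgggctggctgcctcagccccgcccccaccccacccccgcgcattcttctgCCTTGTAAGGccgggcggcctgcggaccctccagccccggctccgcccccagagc
Ldb3, chr14:34588683-34588931, minus strand: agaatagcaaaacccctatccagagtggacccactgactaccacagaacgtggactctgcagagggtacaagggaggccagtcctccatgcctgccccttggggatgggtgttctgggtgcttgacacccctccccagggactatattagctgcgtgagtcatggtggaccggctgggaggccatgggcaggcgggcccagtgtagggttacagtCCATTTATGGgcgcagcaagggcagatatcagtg
In Acta2 the matches begin 84 and 34 bases before the start, in Srf 82 and 62, in Myl9 161 and 99, and in Ldb3 35 bases before it. The second match of Myl9 has 1 inner G. A match is a run of letters and was not tested as a binding site.

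Counts on genes were 23810036 to 35864666 per mouse, and the 35 genes had from 363 counts (Mrtfa) to 299069 counts (Flna) in a mouse. CPM values below are counts scaled to a library of fixed size after TMM normalization. As a check of the labelled tissue, these genes took 3.60% to 5.01% of gene counts in control mice and 2.49% to 4.80% in AZ6983 mice. Markers of perivascular fat, blood, nerve, striated muscle, endothelium and fibroblasts were present in every library, in amounts that differed between mice. In bulk tissue, fewer smooth muscle cells and less RNA per cell cannot be told apart. Mouse A5 stood apart, with a TMM factor of 0.837 against 0.987 to 1.07 in the others, and the results it moves most are also given without it. Reads on no annotated gene, called the unassigned share below, were 10.1% of the table in control mice (SD 1.55, n = 6) and 12.8% after AZ6983 (SD 1.36, n = 6), which differed (exact permutation test, two-sided, p = 0.0108). This share leaves out ambiguous reads and reads that map to several places, the latter a further 18.1% to 23.2% of the table per mouse.

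None of the 35 genes differed between AZ6983 and control aortas at 10% FDR in edgeR, where 0 of 15857 genes (0%) did. At an unadjusted p under 0.05, Notch3 was the 1 member higher and Lmod1 the 1 member lower, beside 7.38% of all genes higher and 2.81% lower. Adjusted p ranged from 0.450 to 0.993 over the members. In 0 members did the groups fail to overlap, where they did so in 0.41% of all genes. The fold change was above 0 in 14 members and below 0 in 21, with a median log2 fold change of −0.02 against 0.01 over all genes tested. The plot of fold changes shows values on both sides of 0 within each role of several genes except transcription, whose 4 genes were all above 0. Susd5, alone under other, was below 0. DESeq2, run with its defaults on all 25284 genes, called 92 of them at 10% FDR and 0 of the 35 members. At so low a share over all genes, 0 of 35 does not set the members apart.

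**Figure D1:**
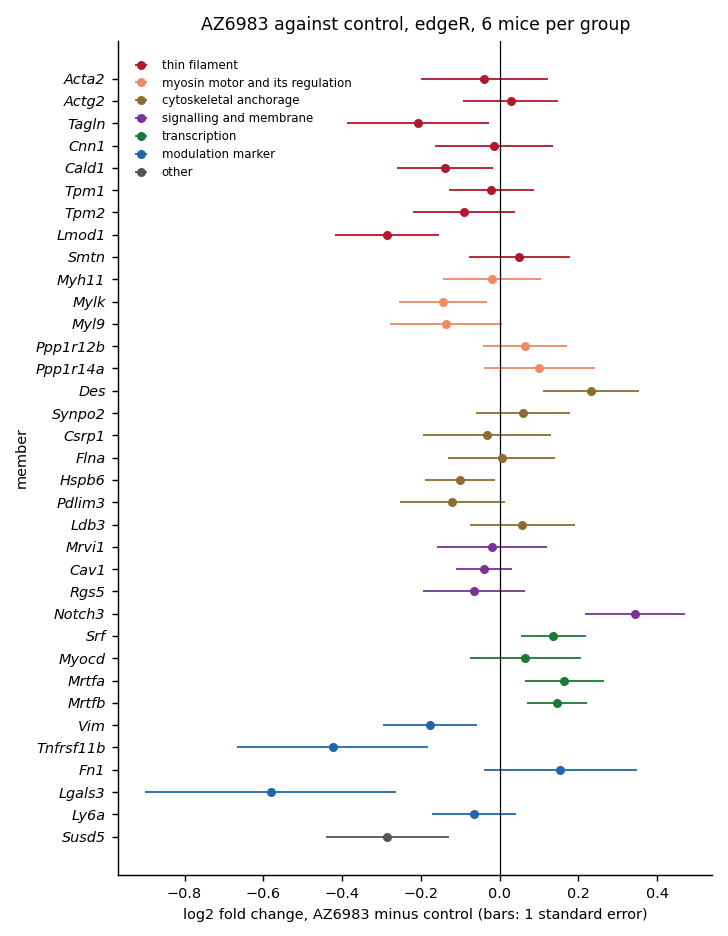
Log2 fold change (AZ6983 minus control, 6 mice per group) from edgeR for each of the 35 genes, with bars of 1 standard error and colours by role. Notch3 at 0.35 is the highest and Lgals3 at −0.58 the lowest, and none passed 10% FDR.

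The thin filament genes encode actin and the proteins that lie along it. Acta2 (chr19:34240336-34255585), smooth muscle α-actin, was the most abundant of the 35 per kb of exon, at 2644 CPM per kb in controls. It was at 4896, 5627 and 7101 CPM (lowest, median, highest) in controls and at 3609.8, 5968 and 6819.9 CPM in AZ6983 mice. The groups overlapped almost fully, with only A5 below every control, and the log2 fold change was −0.04 (standard error, SE, 0.162, adjusted p = 0.948 from edgeR). Without A5 it was 0.04.

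Tagln (chr9:45929628-45936058), transgelin, an actin-binding protein of smooth muscle, was at 1877.5, 2487 and 3202 CPM in controls and 1303, 2316 and 2711 CPM in AZ6983 mice. Again 1 AZ6983 mouse lay below the controls and none above, and the log2 fold change was −0.21 (SE 0.181, adjusted p = 0.677 from edgeR), or −0.12 without A5. Genes on the opposite strand, Pcsk7 and Gm48529, cover 67.9% of Tagln's exon bases. The library kit keeps strand, but whether counting used it is not given in the sources used here. Cnn1 (calponin), which binds actin and slows myosin, was at 442, 535 and 659.8 CPM in controls and 332, 578 and 645 CPM in AZ6983 mice. Its groups overlapped, with a log2 fold change of −0.01 (SE 0.150, adjusted p = 0.981).

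Lmod1 (chr1:135324813-135368065), leiomodin, which starts new actin filaments in smooth muscle, was the only thin filament gene with an unadjusted p under 0.05. It was at 340.0, 474 and 531 CPM in controls and 289, 368 and 480.0 CPM in AZ6983 mice. The ranges overlapped, with 2 AZ6983 mice below every control. The log2 fold change was −0.29 (SE 0.131, adjusted p = 0.487 from edgeR), and −0.25 without A5 (adjusted p = 0.431), where its unadjusted p was above 0.05. Lmod1 moved with the unassigned share over the 12 mice (r = −0.77, permutation p = 0.00407, adjusted over 35 members p = 0.0712, Spearman's rho = −0.83, p = 0.00160, adjusted p = 0.0343). Without the 2 mice of most extreme share r was −0.83, within controls −0.91 and within AZ6983 mice −0.35. In an edgeR fit that holds that share as a covariate, Lmod1 was at a log2 fold change of 0.01 (SE 0.155, adjusted p = 0.9998).

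Of the other thin filament genes, Actg2 (smooth muscle γ-actin), Cald1 (caldesmon), Tpm1 and Tpm2 (tropomyosins) and Smtn (smoothelin) had log2 fold changes from −0.14 for Cald1 to 0.05 for Smtn, with adjusted p of 0.678 or more. Over the 9 thin filament genes, 2 were above 0 and 7 below, with a median of −0.04.

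Myh11 (chr16:14194527-14292188), the heavy chain of smooth muscle myosin, was at 5463, 6051 and 6923 CPM in controls and 4551, 6156 and 7014 CPM in AZ6983 mice. AZ6983 mice held both the lowest value, in A5, and the highest, in A1. The log2 fold change was −0.02 (SE 0.125, adjusted p = 0.968 from edgeR). The other 4 genes of this role control the myosin light chain. Mylk (myosin light chain kinase) was at −0.14 and Myl9 (the regulatory light chain) at −0.14 on the log2 scale, the latter at −0.06 without A5. Ppp1r12b, a subunit of the phosphatase that removes the phosphate, was at 0.06, and Ppp1r14a, an inhibitor of that phosphatase, at 0.10. Adjusted p was 0.637 or more for all 5 genes.

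Anchorage genes tie actin to membranes, dense bodies and other filaments. Flna (filamin A), which crosslinks actin, had the highest counts of the 35, and its log2 fold change was 0.01 (SE 0.136), with a sign that turned below 0 in DESeq2, in limma-voom and without the filter. Des (desmin), the muscle intermediate filament, was at 0.23 (SE 0.122, adjusted p = 0.528 from edgeR). Des is also made in striated muscle, whose 10 markers summed to 5.88 to 577 CPM in controls and 17.7 to 574 CPM in AZ6983 mice. Its correlation with that sum was r = 0.57 (rho = 0.64, n = 12, permutation test, adjusted p = 0.213 and 0.198 over 78 relations). It was 0.50 without the 2 mice of most extreme sum, 0.26 within controls and 0.80 within AZ6983 mice, and the part of striated muscle in the value of Des was not tested. Synpo2 (synaptopodin 2), Csrp1, Hspb6 (a small heat shock protein), Pdlim3 and Ldb3 (PDZ and LIM domain proteins) lay between −0.12 and 0.06.

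Among genes of signalling and membrane, Cav1 (caveolin 1), Rgs5 (a brake on G protein signals) and Mrvi1 (a target of cGMP-dependent kinase) lay between −0.06 and −0.02. Cav1 varied least of the 35, with a pooled SD within groups of 0.093 on the log2 scale. Notch3 (chr17:32120820-32166896), the Notch receptor of arterial smooth muscle, was at 35.3, 47.8 and 58.1 CPM in controls and 48.4, 59.3 and 74.4 CPM in AZ6983 mice. The ranges overlapped, although 3 AZ6983 mice were above every control. The log2 fold change was 0.35 (SE 0.127, adjusted p = 0.450 from edgeR), and 0.26 without A5 (adjusted p = 0.397, unadjusted p above 0.05), the mouse in which it was highest.

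Notch3 also rose with the unassigned share, the only member to do so at an adjusted p under 0.05 by Pearson's r (r = 0.83, permutation p = 0.00102, adjusted p = 0.0357, rho = 0.82, p = 0.00196, adjusted p = 0.0343, n = 12). The relation was 0.66 without the 2 mice of most extreme share, 0.93 within controls and 0.48 within AZ6983 mice. In the fit that holds the share as a covariate it was at 0.04 (SE 0.137, adjusted p = 0.9998 from edgeR). Within controls, r with the share ran from −0.92 (Tagln) to 0.93 (Notch3) over the members, with Cnn1 at −0.90. Within AZ6983 mice it was −0.29 for Tagln and −0.06 for Cnn1. The share itself differed between the groups. Its part and that of AZ6983 therefore cannot be told apart, in the values of Notch3 and Lmod1 or of the other members. An antisense gene, Gm17276, covers 6.03% of the exon bases of Notch3.

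All 4 transcription genes had a fold change above 0, and 0 passed the test. Srf was at 35.8, 40.8 and 52.1 CPM in controls and 44.4, 46.2 and 48.1 CPM in AZ6983 mice. The AZ6983 values lay within the range of the controls, and the log2 fold change was 0.14 (SE 0.083, adjusted p = 0.562 from edgeR). Myocd, the cofactor of smooth and cardiac muscle, was at 86.2, 101 and 113 CPM in controls and 71.8, 104 and 151 CPM in AZ6983 mice. AZ6983 mice held both extremes, A1 the lowest and A2 the highest, and the log2 fold change was 0.07 (SE 0.141, adjusted p = 0.888). Mrtfa and Mrtfb were at 0.16 (SE 0.101, adjusted p = 0.564) and 0.15 (SE 0.077, adjusted p = 0.529).

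**Figure D2:**
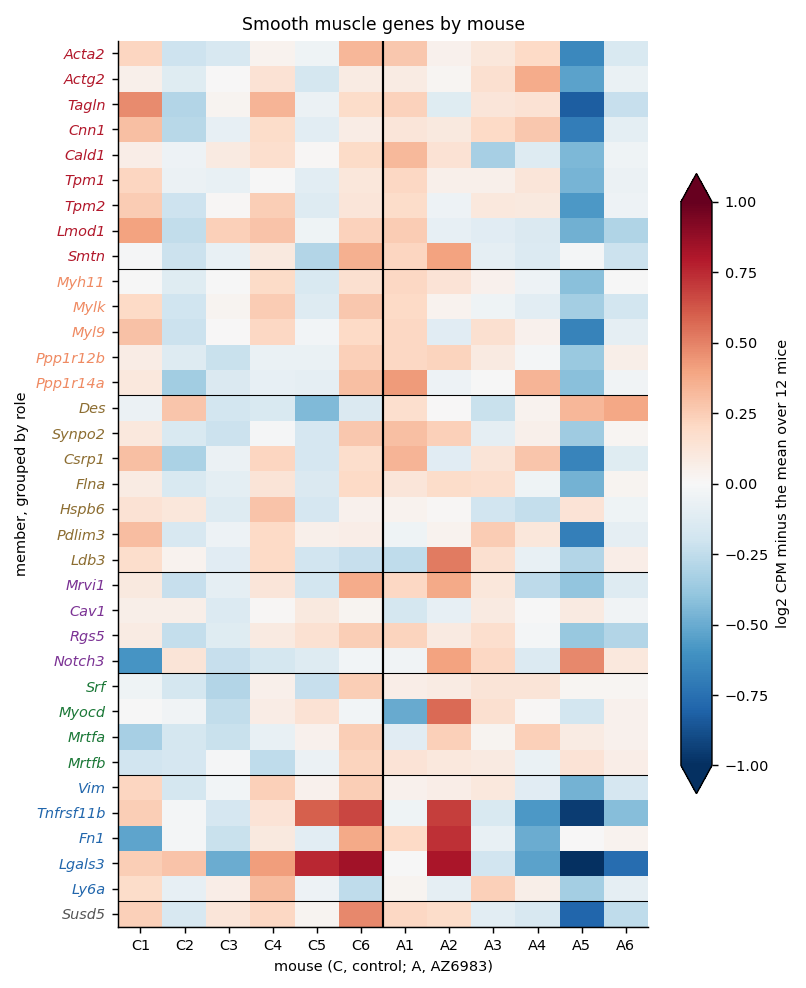
Log2 CPM of each gene minus its mean over the 12 mice, with genes in rows grouped by role (thin filament, myosin, anchorage, signalling and membrane, transcription, modulation, other) and mice in columns. Mouse A5 is lowest in 25 of the 35 genes, and C6 is highest in 11.

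The contractile genes varied from mouse to mouse within both groups, and did so together. Over the 14 thin filament and myosin genes, the mean deviation from each gene's own mean was −0.49 on the log2 scale in A5, which was lowest in 13 of them, and −0.19 to 0.22 in the other mice. These 14 genes took 1.23% of gene counts in A5, 1.87% to 2.62% in controls and up to 2.59% in AZ6983 mice. Mouse A5 also had the highest summed level of the white fat markers (7282 CPM, against 3115 to 6121 CPM in the others) and of the brown fat markers (6115 CPM, against 2507 to 4709 CPM). It had the lowest sums of the macrophage (436 CPM), fibroblast (2653 CPM), cartilage (69.8 CPM) and red cell markers (421 CPM). Without A5 the median log2 fold change of the 14 genes was 0.03, where it was −0.03 with all mice, and 8 of 14 rather than 4 were above 0. Over all 15857 genes tested the median was −0.007 without A5 and 0.009 with all mice, and 7631 rather than 8314 were above 0.

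Over the 12 mice, the median correlation of the other 34 members with Myh11 was 0.70, against 0.01 for all other genes tested. An r above 0.7 was found for 17 of 34 members (50.0%) and for 5.76% of all other genes. In permutation tests adjusted over the 34, 20 members were positively correlated at p under 0.05 by Pearson's r and 4 by Spearman's rho (Flna, Mrvi1, Mylk and Cald1). The lowest r among the 20 was 0.66, which 7.83% of all other genes reached. Without A5 the median was 0.50, 4 members passed by r, and r was above 0.7 in 5 of 34 members (14.7%) and 2.31% of other genes. Without A1 and A5, the 2 mice farthest from the median of Myh11, the median was 0.45 and r was above 0.7 in 4 of 34 (11.8%) and 2.16% of other genes. Values share a library's scaling factor, and with library totals in place of TMM the median was 0.84, against 0.40 over other genes. After centring on group means it was 0.72.

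Flna was closest to Myh11 of the members, with r = 0.94 (rho = 0.85, adjusted p = 0.00261 and 0.0167 by permutation). It was 0.88 without A1 and A5, 0.90 within controls and 0.96 within AZ6983 mice. Mrvi1 had r = 0.85 (rho = 0.88), and 0.84 without those 2 mice. Tpm2 had r = 0.85 (rho = 0.69), and 0.60 without them. For Acta2 r was 0.80 (rho = 0.61), 0.46 without them, 0.60 within controls and 0.88 within AZ6983 mice. A1 and A5 were picked by Myh11 itself, and leaving them out narrows its range. A lower r without them therefore follows in part from the choice and does not show what a relation rests on. Lowest were Cav1 at r = −0.55 (rho = −0.63), Notch3 at −0.30 (rho = −0.10) and Des at −0.27 (rho = −0.13), with adjusted p of 0.0922 or more for r. Without A1 and A5 the r of Cav1, Notch3 and Des was −0.31, 0.17 and −0.08. With library totals in place of TMM, over all 12 mice, it was 0.34, −0.08 and −0.03.

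The transcription genes did not pass the permutation test with Myh11. Myocd had r = 0.09, Mrtfb 0.04 and Mrtfa 0.02, with adjusted p of 0.812 or more, while Srf had r = 0.40 (adjusted p = 0.260) and 0.65 without A1 and A5. Among all genes tested, those with the highest r to Myh11 were Axl (0.96), a receptor tyrosine kinase, Loxl3 (0.95), a lysyl oxidase of the matrix, Slc12a4 (0.94), an ion cotransporter, Flna and Reck (0.93), an inhibitor of matrix metalloproteinases. Within the 14 thin filament and myosin genes all 91 pairs were positively correlated, with a median r of 0.75, and 90 pairs were without A5, with a median of 0.60. The highest pair was Tagln with Myl9 at 0.98. Within the 7 anchorage genes the median was 0.15 and 13 of 21 pairs were positive.

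**Figure D3:**
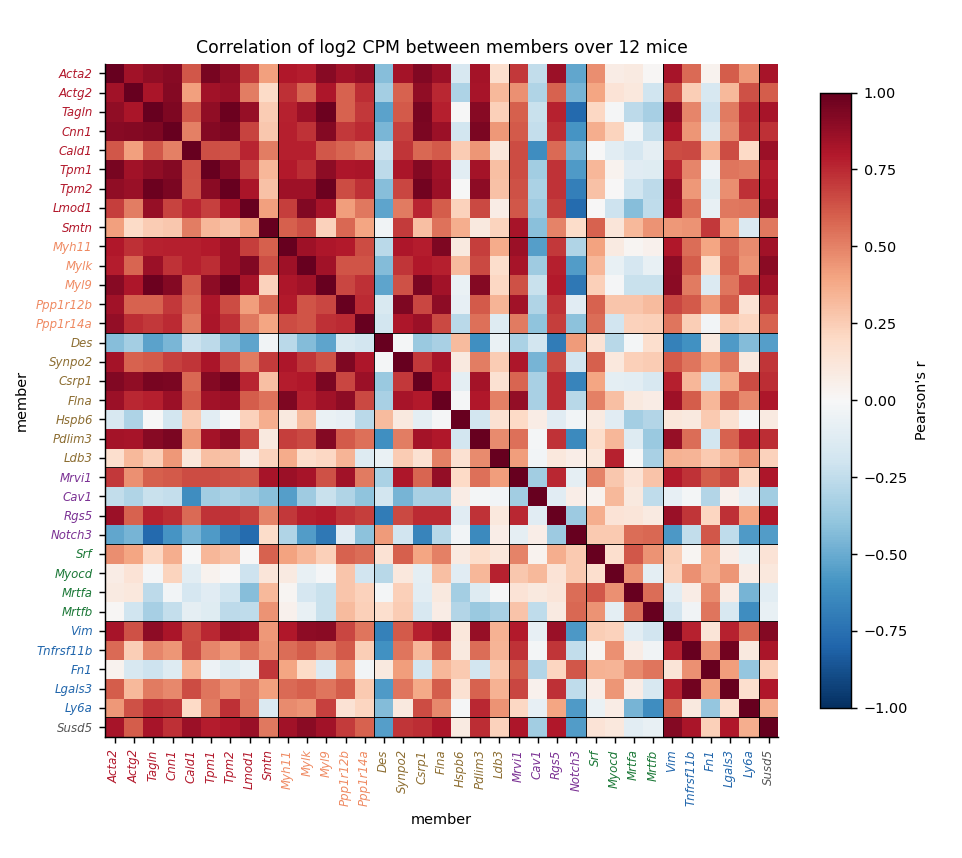
Pearson's r of log2 CPM over the 12 mice for each pair of the 35 genes, in the same order on both axes, with lines between roles. The thin filament and myosin genes form a block in which all 91 pairs are above 0, while Cav1, Notch3 and Des are below 0 with most of it.

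None of the 5 modulation markers passed the test, and 1 was above 0 and 4 below, with a median log2 fold change of −0.18. Vim (chr2:13574311-13582826), vimentin, the intermediate filament of mesenchymal cells, was at 2334, 2889 and 3133 CPM in controls and 1900.1, 2577 and 2842 CPM in AZ6983 mice. Only A5 was below every control, and the log2 fold change was −0.18 (SE 0.120, adjusted p = 0.592 from edgeR). Vim is made by fibroblasts and endothelium too.

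Lgals3 (chr14:47373860-47386167), galectin 3, a lectin of macrophages and of macrophage-like smooth muscle cells, was at 36.2, 65.1 and 91.6 CPM in controls and 19.7, 39.95 and 90.1 CPM in AZ6983 mice. Tnfrsf11b (chr15:54250619-54278484), osteoprotegerin, a decoy receptor that holds back osteoclasts, was at 25.3, 32.6 and 45.4 CPM in controls and 14.7, 23.5 and 46.0 CPM in AZ6983 mice. In each, 3 AZ6983 mice were below every control, while A2 was close to the highest control or above it. The log2 fold change was −0.58 (SE 0.319, adjusted p = 0.535 from edgeR) for Lgals3 and −0.42 (SE 0.243, adjusted p = 0.547) for Tnfrsf11b. They were −0.44 and −0.32 without A5, −0.91 and −0.68 without A2, and −0.98 and −0.71 with the unassigned share held as a covariate. Neither gene passed 10% FDR in any of these fits.

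Fn1 (fibronectin), a matrix protein, was at 1471, 2029 and 2749.65 CPM in controls and 1501, 2146 and 3513 CPM in AZ6983 mice. Ly6a (Sca1), a surface protein of progenitor-like cells, was at 88.7, 107 and 132 CPM in controls and 84.0, 104 and 125 CPM in AZ6983 mice. The groups overlapped in both, and the log2 fold changes were 0.15 (SE 0.194, adjusted p = 0.784) and −0.06 (SE 0.107, adjusted p = 0.848). Susd5, a member with no role assigned here, was at −0.29 (SE 0.156, adjusted p = 0.535 from edgeR).

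Relative to Myh11 of the same library, a ratio that needs no scaling, 9 genes were tested by exact permutation of the 12 mice, two-sided, where the smallest p possible is 0.00216. The log2 ratio of Vim to Myh11 was −1.12 ± 0.114 in controls and −1.28 ± 0.0869 in AZ6983 mice (SD, n = 6 each), with 5 AZ6983 mice below every control (exact p = 0.0216, adjusted over the 9 ratios p = 0.195). For Tnfrsf11b it was −7.50 ± 0.346 and −7.96 ± 0.408, also with 5 AZ6983 mice below every control (exact p = 0.0628, adjusted p = 0.201). For Lgals3 it was −6.56 ± 0.482 and −7.22 ± 0.574, with 2 below (exact p = 0.0671, adjusted p = 0.201). None of the 9 passed after adjustment. Mouse A2 was the AZ6983 mouse with the highest ratio of Tnfrsf11b and of Lgals3, and C3 the control with the lowest. Without A2 the exact p was 0.00649 for Tnfrsf11b and 0.0108 for Lgals3, and without C3 0.0498 and 0.0260, before adjustment. These mice were picked by the same ratios, so a smaller p without them follows from the choice and is not a test. Without A1 or without A6 the exact p of Vim was 0.0563. The differences for Fn1 (0.16), Ly6a (−0.04), Acta2 (−0.03), Tagln (−0.20), Cnn1 (−0.01) and Actg2 (0.03) had an exact p of 0.154 or more.

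**Figure D4:**
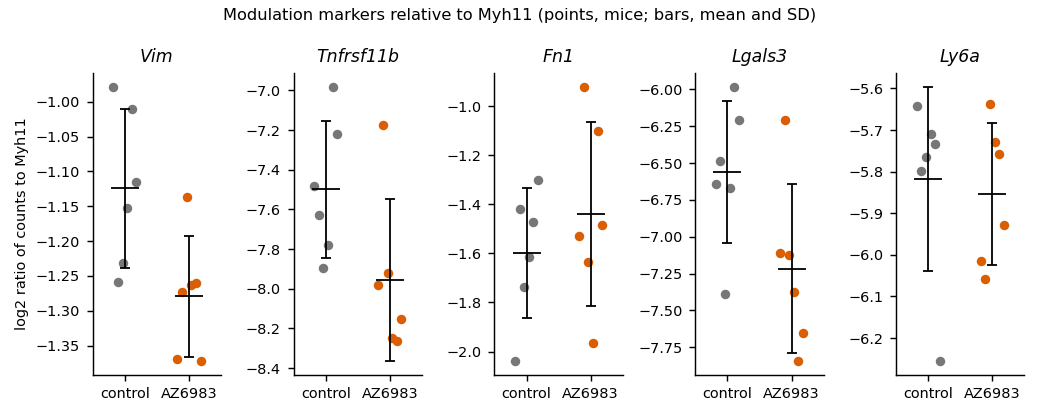
Log2 ratio of counts of each modulation marker to Myh11, 1 point per mouse, with the mean and SD of each group of 6. For Vim and Tnfrsf11b, 5 of the 6 AZ6983 mice lie below every control, and A2 is the high AZ6983 point of Tnfrsf11b and Lgals3.

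Lgals3 and Tnfrsf11b rose and fell together over the mice, with r = 0.97 (rho = 0.97, permutation p = 2.00e-05 and adjusted p = 2.00e-04 for both, over the 10 pairs of the 5 markers). The relation was 0.94 without A2 and A5, the mice farthest from the median of Tnfrsf11b, 0.89 within controls and 0.98 within AZ6983 mice. Vim was correlated with both (r = 0.77 each, adjusted p = 0.0118 by permutation), and rho gave adjusted p of 0.0668. Within controls these were 0.53 with Tnfrsf11b and 0.42 with Lgals3. The other 7 pairs had adjusted p of 0.131 or more.

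Cell type markers moved with some of these genes. Of 78 relations of 6 members with 13 marker lists, 5 had an adjusted p under 0.05 for Pearson's r and 0 for rho. Lgals3 rose with the sums of the markers of fibroblasts (r = 0.83, rho = 0.80, adjusted p = 0.0355 by permutation), macrophages (r = 0.79, rho = 0.69, adjusted p = 0.0431) and cartilage (r = 0.79, rho = 0.78, adjusted p = 0.0431). Without the 2 mice of most extreme sum these were 0.71, 0.59 and 0.68. Within controls they were 0.89, 0.94 and 0.49, and within AZ6983 mice 0.95, 0.91 and 0.90. Of the 7 cartilage markers, 5 passed the filter on low counts. Most of the cartilage sum came from Comp (55.2 CPM on average in controls) and Acan (35.5 CPM), with Col2a1 at 12.8 CPM. Comp is also among the further markers of modulated smooth muscle read below, and which cells gave the cartilage sum was not tested. Fn1 rose with pericyte markers (r = 0.83, rho = 0.79, adjusted p = 0.0355, 0.59 without 2 mice, 0.79 within controls, 0.87 within AZ6983 mice). Abcc9 (519 CPM on average in controls) and Cspg4 (312 CPM) made most of the pericyte sum. Kcnj8 (51.4 CPM), Vtn (3.79 CPM) and Higd1b (1.70 CPM) made the rest. Myh11 had r = 0.74 and rho = 0.81 with the pericyte sum (adjusted p = 0.0553 and 0.0688 by permutation). Which cells gave that sum was not tested.

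Myh11 fell with white fat markers (r = −0.80, rho = −0.65, adjusted p = 0.0431 and 0.198 by permutation). Without the 2 mice of most extreme fat, A5 and C6, r was −0.55, within controls −0.56 and within AZ6983 mice −0.96. All 8 macrophage, 8 fibroblast and 8 white fat markers were detected, and their sums were 478 to 634, 3041 to 3851 and 3115 to 6121 CPM in controls and 436 to 695, 2653 to 4229 and 3983 to 7282 CPM in AZ6983 mice. The part of these cells in the values of Lgals3, Fn1 and Myh11 was not tested.

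**Figure D5:**
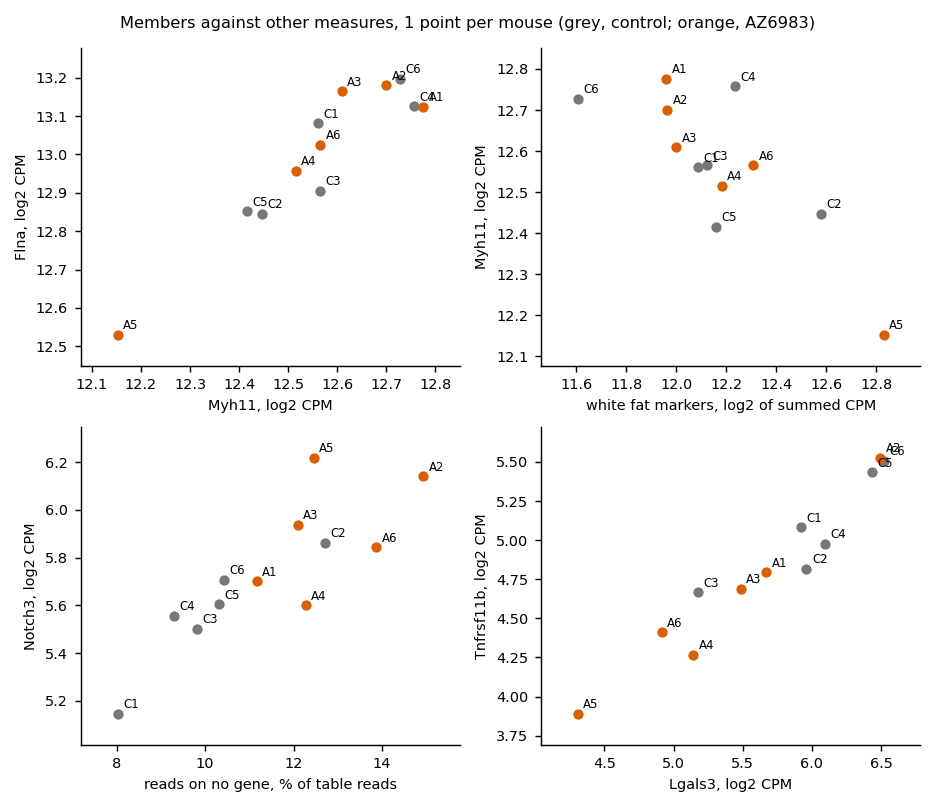
Flna against Myh11, Myh11 against the summed white fat markers, Notch3 against the unassigned share of reads, and Tnfrsf11b against Lgals3, with log2 CPM on each axis except the share in percent and the log2 of the summed CPM, 1 point per mouse. Mouse A5 lies at the end of the first 2 relations, and Lgals3 and Tnfrsf11b fall on 1 line with both groups along it (r = 0.97).

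Further genes of the same systems were read from lists. Beside their counts stand all genes tested, of which 7.38% were higher and 2.81% lower at an unadjusted p under 0.05. Of 48 other genes of the contractile apparatus, 21 were above 0 and 27 below, with 1 higher and 0 lower at an unadjusted p under 0.05 and 0 at 10% FDR. That gene was Myh9, the heavy chain of non-muscle myosin, with means of 455 ± 30.0 CPM under vehicle and 534 ± 50.3 CPM under AZ6983 (SD, 6 mice each, log2 fold change 0.23, SE 0.075, adjusted p = 0.447 from edgeR). Next were Actn4, an actinin that crosslinks actin, at 0.25 (adjusted p = 0.557), and Rock2, a kinase that inhibits the myosin phosphatase, at −0.12 (adjusted p = 0.560). Of 24 cofactors of Srf and other transcription factors of smooth muscle, 13 were above 0, and 1 was higher at an unadjusted p under 0.05. It was Elk4, a factor that binds DNA together with Srf, at 0.20 (SE 0.074, adjusted p = 0.450). Fhl2 (0.18, adjusted p = 0.530) and Prrx1 (0.24, adjusted p = 0.535) followed.

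Of 28 further markers of modulated smooth muscle, 27 were tested, 12 above 0 and 15 below, with 1 higher and 3 lower at an unadjusted p under 0.05 and 0 at 10% FDR. Over all genes tested, 7.38% were higher and 2.81% lower at that p, and 0% passed 10% FDR. Mgp (matrix Gla protein), an inhibitor of calcification, had means of 1213 ± 203 CPM under vehicle and 849.7 ± 247 CPM under AZ6983 (SD, 6 mice each). The log2 fold change was −0.51 (SE 0.189, adjusted p = 0.450 from edgeR). Ibsp, bone sialoprotein, was at 4.10 ± 4.97 CPM and 0.513 ± 0.203 CPM, and its control values ranged from 0.435 to 11.2 CPM, so that some controls were as low as the AZ6983 mice. Its log2 fold change was −2.99 (SE 0.808, adjusted p = 0.447 from edgeR). DESeq2 called Ibsp, at −3.00 (adjusted p = 0.0201), and it was the 1 gene of this list that DESeq2 called at 10% FDR. Col2a1, of the cartilage list, was also called by DESeq2, at −4.42 (adjusted p = 0.00654). The control values of Col2a1 ranged from 0.316 to 27.1 CPM, and its mean under AZ6983 was 0.597 CPM. Of the 5 cartilage markers tested, 1 was above 0 and 4 below in edgeR, and DESeq2 called only Col2a1. Which cells gave the counts of Ibsp was not tested. Eln (elastin) was at 0.32 and Timp1, an inhibitor of matrix metalloproteinases, at −0.66, both with an adjusted p of 0.487.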

How the data were processed

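Thoracic aorta of 12 ApoE-/- mice (6 control, 6 AZ6983) was analysed. The authors prepared stranded total RNA libraries after ribosomal RNA removal, sequenced them on a NextSeq as paired reads of 75 bases, and deposited raw counts per gene symbol. Per the labels, the submitters' processing notes name CASAVA 1.8.2, STAR 2.5.2b, HTSeq 0.6.1p1 and mm10, with no role given. Reads that map to several places, ambiguous reads and reads on no gene stand in 3 rows that name no gene. These rows were left out of the gene counts, and the row of reads on no gene gave the unassigned share. Total RNA holds unspliced transcripts, and how far they add to the counts on genes was not tested. Over windows of 75 bases of the longest coding transcript, 33 members shared none with another gene, Mrtfb shared 0.718% with Spag1 and Ly6a 2.38% with Ly6c1.

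Groups came from titles. The column of A1 matched its mouse number by 3 of 4 digits and the other 11 in full. No label gives batches, litters or pairs. Numbers that end the column names have no stated meaning and largely separate the groups. Group differences used the quasi-likelihood test of edgeR 4.0.16 under R 4.3.3 (TMM, filterByExpr, no covariate, Benjamini-Hochberg over 15857 genes, 10% FDR). DESeq2 1.42.0 and limma-voom (limma 3.58.1) were alternatives, with other normalizations, no filter, a covariate for the share of unassigned reads and each mouse left out. Log2 CPM used a prior count of 2. Ratios used exact permutation tests over 924 assignments, two-sided, and correlations used 100000 permutations, two-sided. The scripts were tested on simulated data. Replicates are separate mice. Gene positions are those of RefSeq on GRCm38.p6, exon lengths and overlaps those of GENCODE M21. The 35 members and the lists were chosen with earlier results of these data known. Named singly were Acta2, Myh11, Tagln, Cnn1, Myocd, Srf, the 5 modulation markers, members with an unadjusted p under 0.05 or the extreme fold changes, the 3 genes of smallest p per list, and the extremes of correlation. Timp1, the pairs of modulation markers, the results without A5 and the DESeq2 values of Ibsp and Col2a1 were chosen after seeing the values. So were the exact p of ratios without A2 or C3 and the relations with the unassigned share. Printed coordinates count from 1.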

Additional observations from a re-analysis of the deposited data

Results flagged for a closer look

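Of 90 sets of 6 mice checked (each member's log2 CPM, each log2 ratio to Myh11 and the unassigned share of reads, per group), 8 held a mouse whose gap to the rest exceeded Dixon's 95% critical value, where chance gives about 1 in 20, or 4.5. Mouse A5 was the lowest AZ6983 mouse in 4 of them, at a log2 CPM of 9.22 for Tpm2 (the others 9.74 to 9.98), 9.88 for Myl9 (10.43 to 10.75), 12.53 for Flna (12.96 to 13.18) and 6.59 for Pdlim3 (7.18 to 7.52). Mouse C3 was low among controls in Cav1 (9.65, the others 9.80 to 9.89), and A4 among AZ6983 mice in Mrtfb (5.499, the others 5.64 to 5.70). For ratios to Myh11, A2 was high in Tnfrsf11b (−7.17, the others −8.26 to −7.92) and C6 low in Ly6a (−6.26, the others −5.80 to −5.64).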

How the results depend on the processing

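In all 18 alternative fits 0 members passed 10% FDR, and with TMM, library totals or DESeq2's size factors 0 had groups that did not overlap. Over all genes, DESeq2 called 92, edgeR with library totals 2, and edgeR with a mouse left out 0 to 27, the 27 being without A5. Members higher at an unadjusted p under 0.05 numbered 0 with a covariate for reads on no gene and 0 to 4 with a mouse left out (4 without C6, 0 without A5). Members lower numbered 0 with that covariate, 0 with library totals and 0 to 3 with a mouse left out (3 without A2). The share of all genes at that p in each of these refits is not given here, so these counts cannot be set against a background. Of 630 refits of single members, 53 turned the sign, 34 of them with a mouse left out, in 20 of the 35 members. With the covariate, log2 fold changes turned to 0.14 for Acta2, 0.16 for Tagln, 0.20 for Cnn1, 0.085 for Tpm1, 0.13 for Tpm2, 0.011 for Lmod1, 0.029 for Myh11, 0.026 for Mylk, 0.11 for Myl9, 0.30 for Csrp1, 0.037 for Pdlim3, −0.10 for Ldb3, 0.081 for Rgs5, −0.21 for Myocd, −0.21 for Fn1 and 0.12 for Ly6a. All members then had adjusted p of 0.9998 or more, and the cause was not tested. Flna was −0.0048 in DESeq2, −0.0050 in limma-voom and −0.016 with no filter.

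With a mouse left out, log2 fold changes that turned sign ranged from −0.10 to 0.042 for Acta2, −0.055 to 0.098 for Actg2, −0.085 to 0.072 for Cnn1, −0.067 to 0.036 for Tpm1, −0.049 to 0.13 for Smtn, −0.066 to 0.033 for Myh11, −0.11 to 0.050 for Csrp1, −0.046 to 0.066 for Flna, −0.074 to 0.11 for Ldb3, −0.12 to 0.060 for Mrvi1, −0.079 to 0.15 for Myocd and −0.023 to 0.25 for Fn1. Differences of log2 ratios to Myh11 ranged from −0.18 to −0.13 for Vim, −0.62 to −0.36 for Tnfrsf11b, −0.86 to −0.53 for Lgals3, −0.12 to 0.0039 for Ly6a, −0.048 to 0.062 for Actg2, −0.072 to 0.053 for Cnn1 and −0.082 to 0.014 for Acta2. Without A5, 4 rather than 20 members were positively correlated with Myh11, and without A5 and C6 the r of Myh11 with white fat was −0.55. No paired analysis was possible because the labels give the groups no shared replicate numbers. Depth limited no member, since the lowest count was 363.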
